A study of Mus musculus with 120 samples.

Results

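The 3 genes described here are Il13, Il5 and Il4, the type 2 cytokine genes of the mouse cytokine locus, followed cell by cell in stimulated group 2 innate lymphoid cells (ILC2). They were chosen by gene name and matched to the count data by Ensembl identifier, which gave 3 of the 46078 genes counted. The values are 3' RNA sequencing read counts of 120 single cells, 1 library per cell. The ILC2 came from the pooled mesentery of 20 wildtype C57BL/6 mice and were sorted as lineage-negative cells positive for c-Kit and Sca-1. By the study's methods such cells came as a rule from females retired from breeding, and no age is stated for these mice. They were cultured for months in medium with IL-2 before use, so they model an expanded culture rather than freshly isolated cells. Each cell was followed under the microscope for the release of a single cytokine, its index, which was IL-13 for 60 cells and IL-5 for the other 60. Each index holds 5 pre-stimulation cells, recovered before any stimulus, and 5 states of 11 cells each that were incubated with IL-2/IL-33. Transition cells were recovered 30, 60 or 90 min after a cell's own onset of secretion, activated cells were secreting at a later fixed time, and silent cells were not secreting at that time. States were thus assigned from secreted protein and not from mRNA. No animal or culture is named for a cell, so the cells of a group are not replicates of its condition. Each of the 12 groups was taken as 1 sample, no test was made, and intervals cover counting error only. The indexes are separate sets of cells and libraries, so a difference between indexes cannot be told apart from one between those sets.

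IL-13, IL-5 and IL-4 are the classical type 2 cytokines. IL-13 acts on epithelium, smooth muscle and macrophages, IL-5 supports the growth and survival of eosinophils, and IL-4 drives B cell class switching and the T helper 2 program. ILC2 are a main innate source of IL-13 and IL-5 and respond to the alarmin IL-33 without an antigen receptor, while IL-4 from ILC2 is more variable. The genes lie in 1 cluster, with regulatory elements of the locus inside the neighbouring gene Rad50, which encodes a DNA repair protein.

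In GRCm38, Il4 (ENSMUSG00000000869) lies on chromosome 11 from 53602982 to 53618669 on the minus strand, and Il13 (ENSMUSG00000020383) from 53631324 to 53634702 on the same strand. Il5 (ENSMUSG00000036117) lies from 53720794 to 53725106 on the plus strand. The gap between Il4 and Il13 is 12654 bases and the gap between Il13 and Il5 is 86091 bases, most of which is Rad50. An annotated antisense gene, Gm12214, overlaps Il5, and the sources do not give the strand setting of the counting. It held 24 reads over all 120 cells, while Il13 and Il4 overlap no other annotated gene.

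The 250 bases before the start of each gene are shown because transcripts of the 3 genes appeared in the same cells. They come from RefSeq (GRCm38.p6), are written 5′ to 3′ on the strand of the gene, and end just before the RefSeq start, which for Il4 is 4 bases inside the GENCODE gene. Capitals mark matches, on either strand, to GGAAA (the core of NFAT sites), to the GATA words AGATAA or AGATAG or TGATAA or TGATAG, to TGANTCA (AP-1) or to TATAAA.
Il13 (chr11:53634703-53634952, minus strand): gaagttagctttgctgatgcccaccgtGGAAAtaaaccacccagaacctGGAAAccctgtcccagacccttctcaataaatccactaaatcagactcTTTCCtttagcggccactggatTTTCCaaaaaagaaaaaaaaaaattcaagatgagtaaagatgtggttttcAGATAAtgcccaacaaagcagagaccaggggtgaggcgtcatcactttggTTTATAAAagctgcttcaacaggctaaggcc
Il5 (chr11:53720544-53720793, plus strand): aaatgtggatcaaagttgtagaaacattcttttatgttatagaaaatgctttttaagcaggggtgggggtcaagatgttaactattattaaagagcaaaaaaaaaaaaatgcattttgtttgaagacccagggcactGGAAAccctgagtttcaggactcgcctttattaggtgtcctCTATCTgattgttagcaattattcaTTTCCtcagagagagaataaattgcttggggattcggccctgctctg
Il4 (chr11:53618666-53618915, minus strand): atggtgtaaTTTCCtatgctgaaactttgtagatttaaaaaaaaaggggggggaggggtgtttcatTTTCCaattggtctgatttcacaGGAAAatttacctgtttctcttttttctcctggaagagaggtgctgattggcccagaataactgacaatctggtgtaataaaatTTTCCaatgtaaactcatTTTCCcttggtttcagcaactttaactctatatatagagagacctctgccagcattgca
The NFAT core was found 4 times before Il13, 2 times before Il5 and 5 times before Il4. Of 32851 windows of the same length, 55.6% held it at least once, 21.4% held 2 or more, 6.39% held 3 or more and 0.39% held 5 or more. A GATA word was found once before Il13 and once before Il5, and 26.5% of all windows held one. AP-1 words were in none of the 3 windows and in 6.75% of all windows. TATAAA was found before Il13 once on each strand, as overlapping matches that run from 31 to 24 bases before the start, and 12.4% of all windows held it. The longest run shared by the windows of Il13 and Il5 was ctGGAAAccctg, of 12 bases with an NFAT core inside, which starts 203 bases before Il13 and 115 bases before Il5. It was in 6 of the 32851 windows, on either strand. These matches are letters in a window and do not show binding.

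Cells carried 65 to 785198 gene reads, with a median of 254001. The 6 cells under 84667 reads, the median divided by 3, were left out of levels, shares and correlations, which left 114 cells. All values per cell are given as counts scaled to the gene reads of that cell (CPM). They were not scaled to the ERCC spike-in RNA that, by the study's methods, was added to each sample. On this scale a change of 1 gene and a change of a cell's total RNA cannot be told apart. Reads come from 3' ends and were not divided by length, so where reads of 1 gene are set against reads of another, the comparison is one of reads and not of transcripts. Of the 13 ILC2 markers, 10 were read in 68 or more of the 114 cells, among them Gata3 in 112, Il1rl1 (the IL-33 receptor) in 109 and Kit in 107. Markers of B cells were at 0 in all cells, and of the T cell markers Cd4 and Cd8a were at 0 while Trbc2 was read in 96 cells, Cd3g in 26 (up to 4034 CPM), Cd3d and Trac in 4 each and Cd3e in 3. Summed T cell markers ranged from 0 to 4890 CPM and had medians in activated and silent cells of 210.0 and 886.3 CPM for the IL-13 index and of 317.1 and 172.6 CPM for the IL-5 index. In pre-stimulation and 30 min cells these markers had medians of 1287 and 639.6 CPM for the IL-13 index and of 442.4 and 611.8 CPM for the IL-5 index. Their part in the results was not tested. Of the mast cell or basophil markers, Mcpt4, Mcpt8, Tpsb2 and Ms4a2 were at 0, while Cd200r3 was read in 16 cells and Fcer1a in 15.

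Before stimulation, Il13 and Il5 were nearly absent. In the IL-13 index, 4 of 5 cells had no Il13 read and 1 cell had 1 read (5.93 CPM), and 4 of 5 had no Il5 read while 1 cell had 23 reads (93.4 CPM). These were different cells. In the IL-5 index, all 5 cells were at 0 for both genes, which allows a share of up to 60% of cells with a read by a limit of 3 counts of n (52.2% by the exact Clopper-Pearson interval). Il4 was the exception. It was at 0 in the 5 cells of the IL-13 index, whereas the 5 cells of the IL-5 index had 0, 1, 2, 37 and 121 reads, or 0, 3.26, 7.55, 126.2 and 564.9 CPM. Thus 2 of 5 unstimulated cells of the IL-5 index held Il4 above 100 CPM without a single Il13 or Il5 read.

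In cells recovered 30 min after the onset of secretion, both Il13 and Il5 were read in each of the 21 cells kept. Il13 ran from 150.4 through a median of 1364 to 5840.3 CPM in 11 cells of the IL-13 index, and from 154.2 through 1567 to 6480.0 CPM in 10 cells of the IL-5 index. The lowest of these cells lay above the highest pre-stimulation cell in both indexes. On the log2(CPM + 1) scale the median difference from pre-stimulation cells was 10.4 with the IL-13 index and 10.6 with the IL-5 index, against SDs over the 30 min cells of 1.52 and 1.80.

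Il5 at 30 min differed more between the indexes. IL-5-indexed cells ran from 316.3 through 3661 to 11742 CPM, with all cells above every pre-stimulation cell. In the IL-13 index it ran from 4.74 through 949.0 to 4156 CPM, and 3 of 11 cells lay at or below the highest pre-stimulation cell. The SD over cells of log2(CPM + 1) was 3.26 for Il5 against 1.52 for Il13 in those 11 cells, and 1.66 against 1.80 in the IL-5 index. The spread of Il5 came with cells that held much of 1 gene and little of the other. Replicates 6 and 11 of the IL-13 index had Il13 at 753.3 and 546.1 CPM with Il5 at 4.74 and 10.7 CPM, and replicate 9 had 3530 CPM of Il13 with 74.7 CPM of Il5. Replicate 7 had the opposite order, with 1364 CPM of Il13 and 4156 CPM of Il5. At 60 and 90 min the SDs were 3.21 and 3.11 for Il13 against 1.58 and 1.68 for Il5 with the IL-13 index, but each of these Il13 values rests on 1 cell at 0 and was 1.45 without replicate 11 at 60 min and 0.92 without replicate 7 at 90 min. With the IL-5 index they were 4.41 and 3.07 for Il13 against 1.41 and 1.74 for Il5, and those of Il13 were 3.77 without replicate 4 at 60 min and 2.07 without replicate 5 at 90 min. Whether the spreads differ was not tested.

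**Figure D1:**
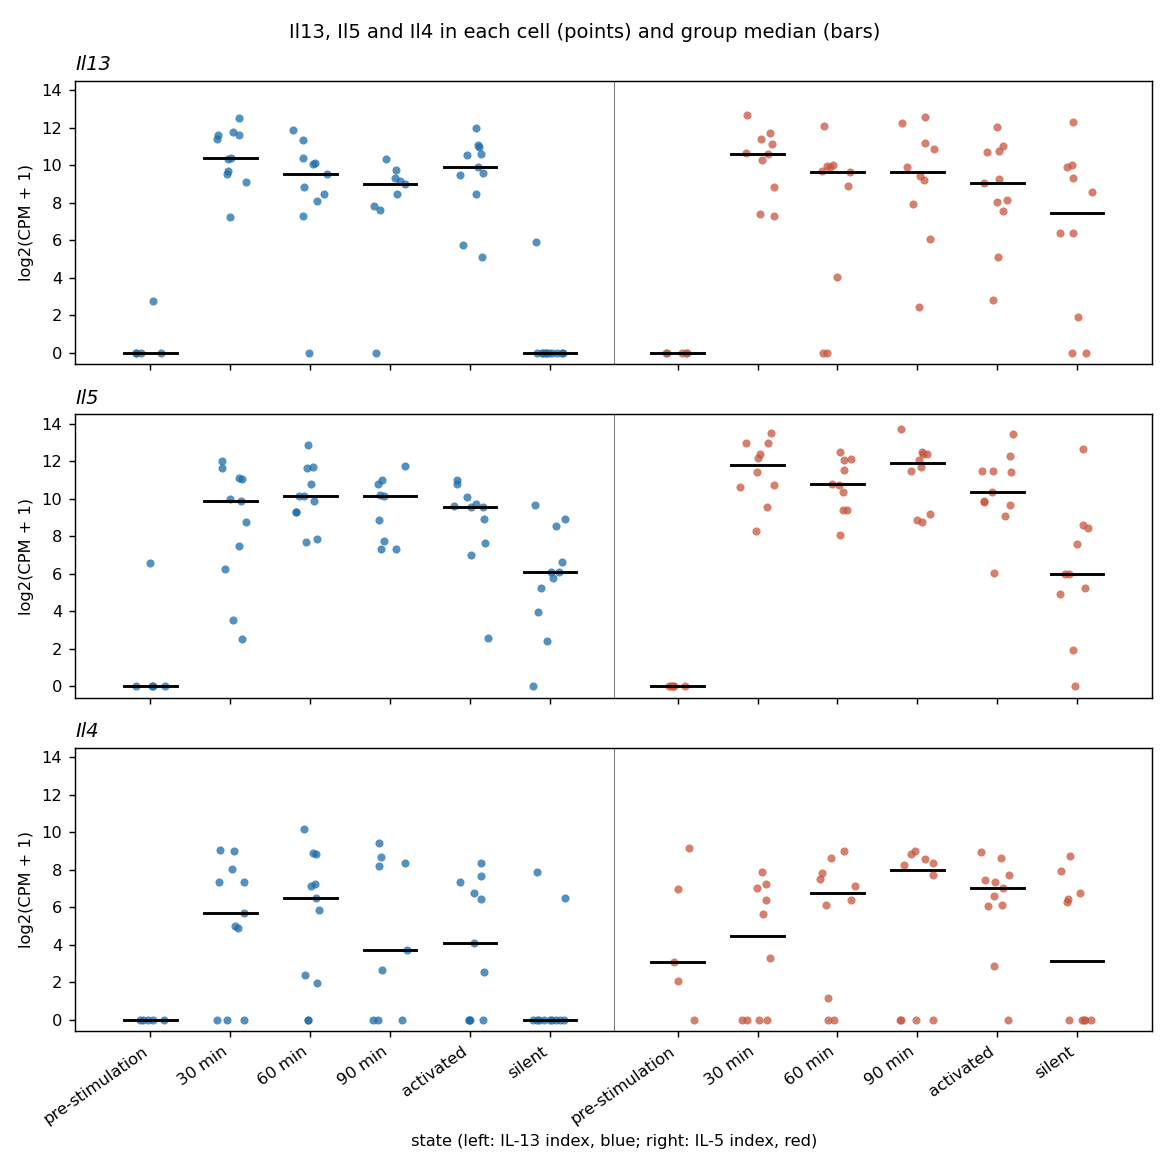
Level of Il13, Il5 and Il4, as log2(CPM + 1) on the vertical axes, in each of the 114 cells (points) by state and index on the horizontal axis, with the median of each group as a bar. Il13 lies at 0 in 10 of 11 silent cells of the IL-13 index but in 2 of 10 silent cells of the IL-5 index, and Il4 is split between 0 and higher values in most groups.

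At 60 and 90 min, Il13 medians were lower than at 30 min. In the IL-13 index Il13 ran from 0 through 735.4 to 3828 CPM at 60 min and from 0 through 514.8 to 1302 CPM at 90 min. IL-5-indexed cells ran from 0 through 814.2 to 4448 CPM and from 4.55 through 826.3 to 6188 CPM. The log2 difference of the 90 min from the 30 min median was -1.40 and -0.94, with SDs over the 90 min cells of 3.11 and 3.07. For the IL-13 index that SD rests on replicate 7 at 0, and without it the difference was -1.33 and the SD 0.92. The 30 min cells had an SD of 1.52, so the difference lay within the larger SD of the pair with or without that cell. Without it, the difference was beyond the SD of the 90 min cells alone. Il5 at 90 min ran from 159.9 through 1143 to 3427 CPM with the IL-13 index and from 429.3 through 3835 to 13310 CPM with the IL-5 index, a log2 difference from 30 min of 0.27 and 0.10.

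Activated and silent cells were compared to see whether cells that did not secrete the index cytokine also lacked its mRNA. Il13 in the 11 activated cells of the IL-13 index ran from 33.4 through 949.7 to 4064 CPM, while 10 of 11 silent cells were at 0 and 1 held 11 reads (58.5 CPM). The ranges overlap only through that cell, replicate 1, and without it the silent group has 0 Il13 reads. Il5 separated these same cells less. Activated cells ran from 4.88 through 747.9 to 2051 CPM and silent cells from 0 through 66.5 to 805.2 CPM, with 10 of 11 silent cells above 0. Their median log2 difference was 3.47, with SDs of 2.38 and 2.86.

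In the IL-5 index most silent cells held both genes. Il5 was read in 9 of 10 silent cells, from 0 through 63.6 to 6576 CPM, against 63.9 through 1332 to 11295 CPM in activated cells. Il13 was read in 8 of 10 silent cells, from 0 through 232.0 to 5162 CPM, against 6.09 through 528.4 to 4186 CPM in activated cells. The median log2 difference of activated from silent cells was 4.37 for Il5 and 1.56 for Il13, with larger SDs of 3.56 and 4.42, so that of Il13 was within the spread. Replicate 6 of these silent cells held 78.1% of the group's Il5 reads and 47.2% of its Il13 reads. The summed level of the silent group was 481.8 CPM for Il5 (95% interval 457.5 to 507.0) and 111.8 CPM without that cell, and 625.8 CPM for Il13 (598.1 to 654.4) and 350.4 CPM without it. In replicate 11 Il13 stood at 1040.0 CPM with Il5 at 0, and in replicate 10 Il5 stood at 352.1 CPM with Il13 at 0.

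Ordered by the median log2(CPM + 1) over the 12 groups, Il13 was highest in the 30 min cells of the IL-5 index and of the IL-13 index, and the first 9 groups followed each other by less than the larger SD of each pair of neighbours. The only step above that SD was from silent cells of the IL-5 index (232.0 CPM) to the 3 groups at a median of 0, which were the silent cells of the IL-13 index and both pre-stimulation groups. Il5 was highest in the 90 min cells of the IL-5 index, and all 4 secreting groups of the IL-5 index stood above all 4 of the IL-13 index. Steps beyond the spread came between the activated cells of the IL-13 index and the silent cells (log2 difference 3.47, SD 2.86), and between silent and pre-stimulation cells (6.01, SD 3.56). For Il4 no neighbours differed by more than their spread, from 255.2 CPM in the 90 min cells of the IL-5 index to a median of 0 in pre-stimulation and silent cells of the IL-13 index.

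Il4 differed from the other genes in being at 0 in many secreting cells. Over the 83 transition and activated cells it was at 0 in 23 cells, between 0 and 20 CPM in 9, from 20 to 100 CPM in 13 and at 100 CPM or more in 38. The highest cell had 1139 CPM, in the 60 min cells of the IL-13 index. Il13 in the same 83 cells was at 0 in 4, and Il5 in none. By sequencing depth alone, 3 reads in the 23 cells without Il4 correspond to 6.45 to 27.6 CPM. The 60 cells with an Il4 read had a median of 161.0 CPM where read. Depth does not cover transcripts that never entered a library, so a 0 is not shown to be absence of Il4 mRNA. Median depth was 252451 gene reads in cells without and 284221 in cells with an Il4 read. Il13 had a median of 1267 CPM in the 23 cells without and 726.7 CPM in the 60 cells with Il4, and Il5 2724 and 1122 CPM, with log2 SDs of 2.12 to 3.45, and neither median was lower where Il4 was at 0. With silent cells added, these medians were 692.0 and 639.7 CPM for Il13 and 805.2 and 940.1 CPM for Il5, so the order of Il5 changed.

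Counting the genes read in each cell gives their joint detection. Of the 83 transition and activated cells, 58 held all 3 genes, or 69.9% (exact 95% interval 58.8 to 79.5%), 23 held 2 genes and 2 held only Il5. None held Il13 alone, Il4 alone or no gene. Il13 and Il5 were read together in 79 cells, or 95.2% (88.1 to 98.7%). Of 21 silent cells, 4 held all 3 genes, 7 held 2, 9 held 1 and 1 held none, and of the 10 pre-stimulation cells, 6 held 1 gene, 4 held none and 0 held 2 or more, which allows a share of up to 30% (exact 30.8%).

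By group, all 3 genes were read in 8 of 11, 9 of 11 and 6 of 9 cells at 30, 60 and 90 min in the IL-13 index, in 7 of 11 activated cells and in 0 of 11 silent cells, which allows a share of up to 27.3% (exact 28.5%). For IL-5-indexed cells the counts were 6 of 10 at each of the transition times, 10 of 11 activated and 4 of 10 silent cells. The exact intervals of the secreting groups all overlap, from 26.2 to 87.8% for 6 of 10 and from 58.7 to 99.8% for 10 of 11. Silent cells of the IL-13 index were mostly in 1 combination, with Il5 alone in 7 of 11. Silent cells of the IL-5 index were spread over 5 combinations, with all 3 genes in 4, Il13 and Il5 in 3, and 1 cell each with Il5 and Il4, Il5 alone or Il13 alone.

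**Figure D2:**
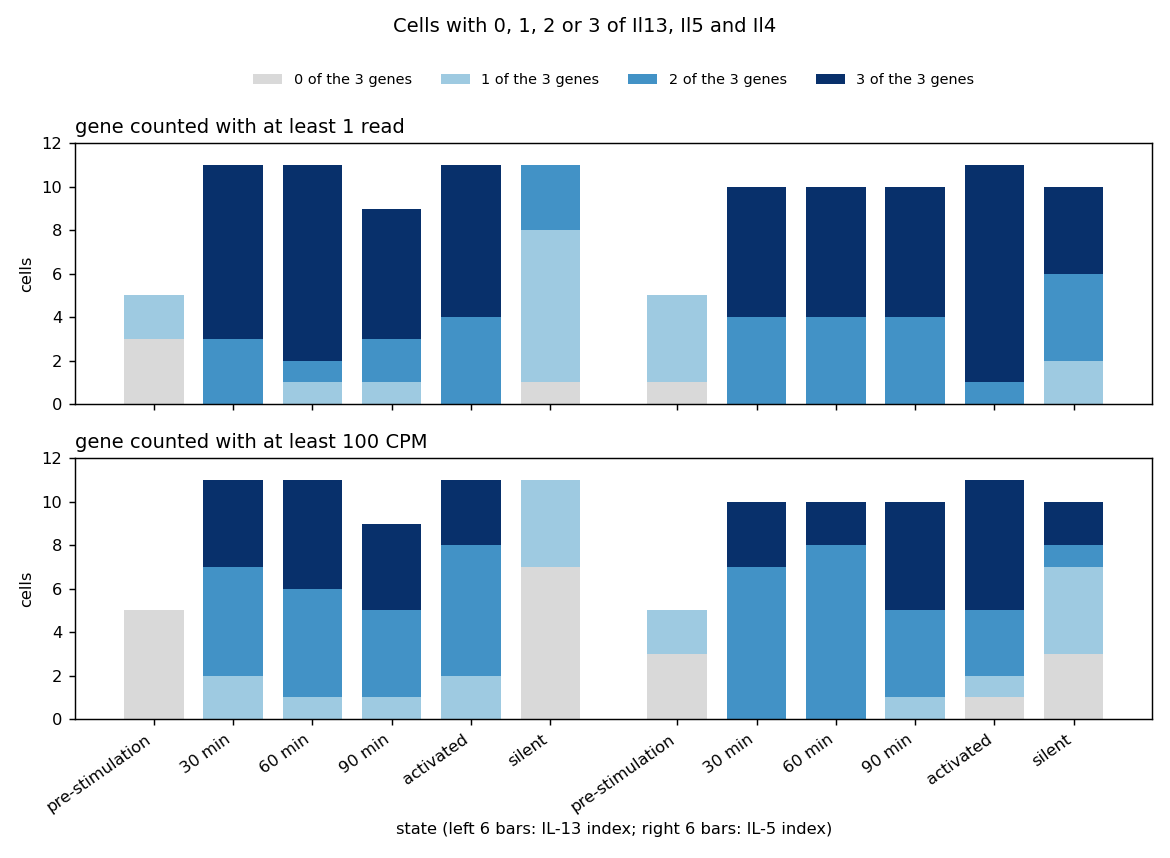
Number of cells (vertical axes) with 0, 1, 2 or 3 of Il13, Il5 and Il4 in each of the 12 groups, counting a gene at 1 read or more (top) and at 100 CPM or more (bottom). All 3 genes are read in 6 to 10 cells of every secreting group in the top panel and in 2 to 6 in the bottom panel, and in no pre-stimulation cell of either.

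With a gene counted only at 100 CPM or more, 32 of the 83 transition and activated cells held all 3 genes, or 38.6% (28.1 to 49.9%), and 68 held Il13 and Il5, or 81.9% (72.0 to 89.5%). Il13 and Il5 together were then at 0 of 11 in IL-13-indexed silent cells and at 3 of 10 in those of the IL-5 index. Libraries of a state and title date were taken to share a pool of 5 or 6. Among cells under 20 CPM of Il13, 3 of 8 had a read in the 16 pools that also held a cell at 1000 CPM or more, and 2 of 22 in the 6 pools that did not. For Il5 these counts were 3 of 4 and 3 of 13, and for Il4 they were 1 of 2 and 10 of 52. The pools without such a cell of Il13 or Il5 were mostly of pre-stimulation and silent cells, so pool and state cannot be told apart here. The part of shared pools in the 1-read shares was not tested. This comparison was chosen after the data were seen.

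Counting a gene at 1 read, Il5 was found in 67 of 67 stimulated cells with Il4 (32 of 32 in the IL-13 and 35 of 35 in the IL-5 index) and in 35 of 37 cells without Il4. This depended on the limit. At 5 reads Il5 was found in 56 of 58 cells with Il4 and in 40 of 46 without, and at 100 CPM in 38 of 42 with and 47 of 62 without. At 1 read Il13 was found in 30 of 32 cells with Il4 and 11 of 21 without for the IL-13 index, and in 32 of 35 with and 15 of 16 without for the IL-5 index. For the IL-13 index this was 23 of 23 with and 6 of 8 without in transition cells, 7 of 7 and 4 of 4 in activated cells, and 0 of 2 and 1 of 9 in silent cells, which made up most of the cells without either gene. The 4 secreting cells without Il13 all held Il5, at 3155 and 161.1 CPM with the IL-13 index and at 272.1 and 1303 CPM with the IL-5 index. Of these, the cells of the IL-13 index had no Il4 read and those of the IL-5 index had 184.3 and 516.9 CPM. By depth alone, 3 reads correspond to 8.30 to 26.3 CPM in these 4 cells, which does not cover transcripts that never entered a library.

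**Figure D3:**
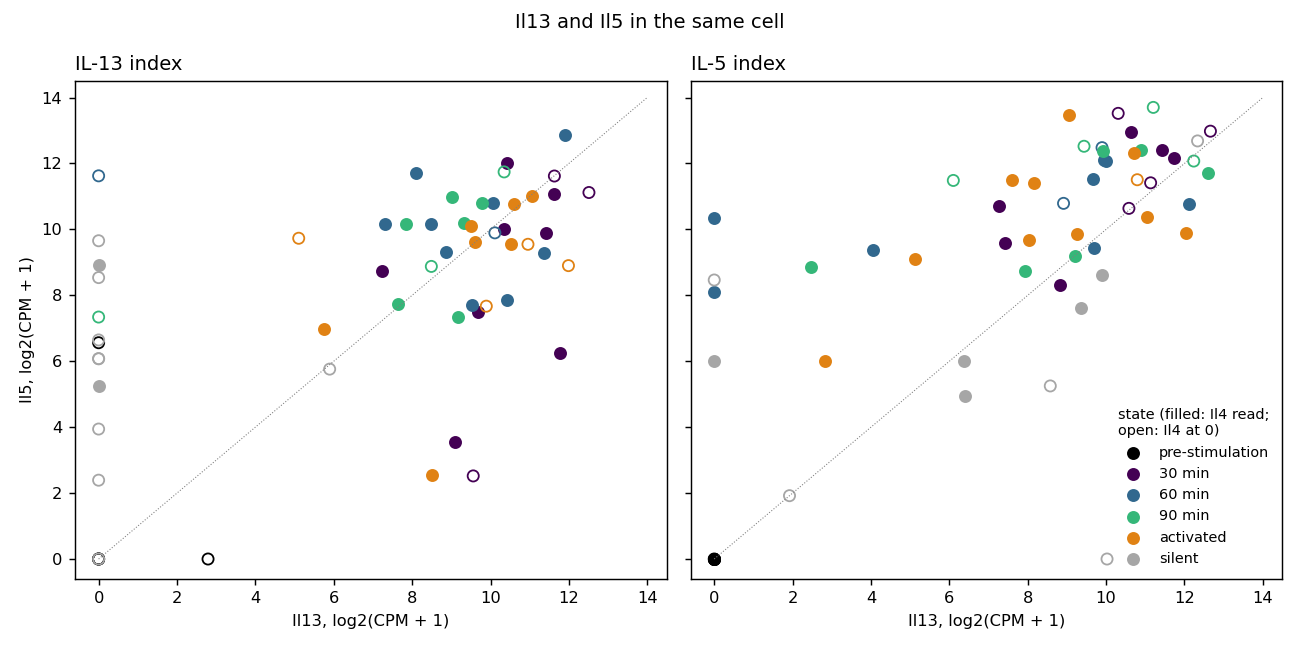
Il5 (vertical axes) against Il13 (horizontal axes), both as log2(CPM + 1), in each cell by state (colour), with filled points where Il4 was read and open points where it was at 0; the dotted line marks equal values. Of the silent cells of the IL-13 index, 10 of 11 lie on the left edge at Il13 of 0 with Il5 up to 805.2 CPM, and most secreting cells of the IL-5 index lie above the line.

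Beyond shared detection, the levels of Il13 and Il5 were compared across the cells of a state. In the IL-5 index Pearson's r of log2(CPM + 1) was 0.67 at 30 min, 0.66 at 60 min, 0.63 at 90 min (n = 10 each) and 0.64 in activated cells (n = 11), with Spearman's rho of 0.56, 0.63, 0.60 and 0.40. In silent cells r was 0.23 (rho 0.16, n = 10). Without the 2 cells farthest from the Il13 median, the values at 30, 60 and 90 min were 0.67, 0.51 and 0.62, while that of activated cells was -0.13 and so rests on those 2 cells. After subtracting the mean of each title date, they were 0.65, 0.60, 0.67 and 0.63. The value at 90 min rests on leaving out the shallow cell, replicate 11, which held 136 reads of Il13 and 3 of Il5. With it r was 0.30 (n = 11). The shallow cells at 30 and 60 min, of 73 and 65 gene reads, had none of the 3 genes and say nothing of r.

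For the IL-13 index r between Il13 and Il5 was 0.45 at 30 min (rho 0.53, n = 11), -0.26 at 60 min (rho -0.24, n = 11), 0.60 at 90 min (rho 0.65, n = 9) and 0.31 in activated cells (rho 0.26, n = 11). Leaving out single cells at 60 min moved r between -0.57 and 0.07. Without the 2 cells farthest from the Il13 median, the values at 30, 60 and 90 min and in activated cells were 0.62, -0.45, 0.41 and 0.62, so that of activated cells was higher than with the IL-5 index once trimmed in this way. Whether the indexes differ was not tested. In silent cells r cannot be read, as 10 of 11 had no Il13. These values carry no p, since the cells of a state and date share a library pool.

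For Il4, r with Il13 lay between -0.51 and 0.42 over the 10 stimulated groups and r with Il5 between -0.54 and 0.20. At 30 and 60 min of the IL-5 index r was -0.51 and -0.46 with Il13 and -0.31 and -0.48 with Il5, and at 90 min it was -0.54 with Il5 (n = 10 each). Without the 2 farthest cells these were -0.26, -0.18, -0.01, -0.27 and -0.43. They stayed below 0 on leaving out any 1 cell. The r of Il4 with Il5 in IL-13-indexed activated cells went from -0.14 to 0.72 without the 2 farthest cells, and that with Il13 from 0.03 to -0.56.

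**Figure D4:**
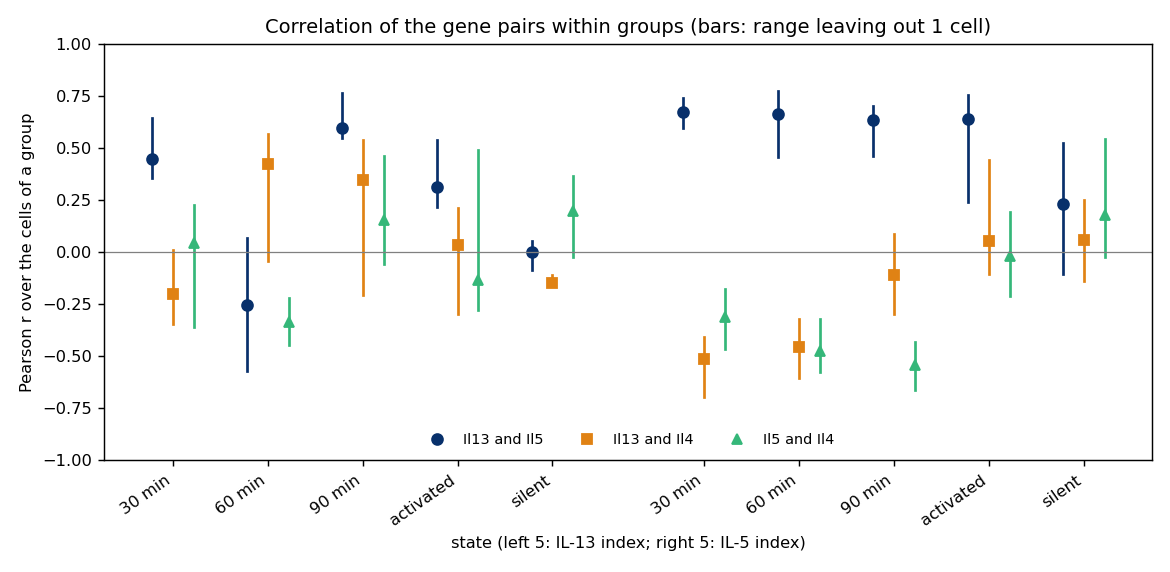
Pearson's r over cells (vertical axis) of each pair of genes within the 10 stimulated groups (horizontal axis), with the range on leaving out any 1 cell as a bar; n is 9 to 11 cells, with the shallow cells left out. Il13 and Il5 lie between 0.63 and 0.67 in the 4 secreting groups of the IL-5 index and between -0.26 and 0.60 in those of the IL-13 index.

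Over all stimulated cells of an index, after subtracting the mean of each group and title date, r of Il13 and Il5 was 0.43 in the IL-5 index (rho 0.43, n = 51 cells in 10 pools) and 0.18 in the IL-13 index (rho 0.22, n = 53 in 10 pools). The range on leaving out single cells was 0.38 to 0.53 and 0.12 to 0.28. Against the 2557 other genes with a mean of at least 50 CPM and a read in at least 30 cells, 11 genes had an r with Il13 at least as high in the IL-5 index and 264 in the IL-13 index. The median r of these genes with Il13 was 0.01 and -0.02. Correlation of Il13 and Il5 with gene reads per cell was 0.09 and -0.08 in the IL-5 index and -0.22 and 0.06 in the IL-13 index. Il4 had an r of -0.09 with Il13 and -0.14 with Il5 in the IL-5 index, and of 0.18 and -0.01 in the IL-13 index, where the value with Il13 was -0.03 without the 2 farthest cells. On leaving out any 1 cell the values of Il4 in the IL-5 index ran from -0.14 to -0.05 and from -0.23 to -0.10. Without silent cells these were -0.20 and -0.33 (n = 41), and r of Il13 and Il5 was 0.59 in the IL-5 index and 0.24 in the IL-13 index (n = 42).

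The mix of the 3 transcripts within a cell was read as the share of Il13 in their summed reads, in cells with at least 20 such reads. At 30 min, Il13 made up 59.2% (exact interval 58.2 to 60.2%) of these reads with the IL-13 index and 28.9% (28.3 to 29.5%) with the IL-5 index. Il13 outnumbered Il5 in 9 of 11 cells of the IL-13 index and in 1 of 10 of the IL-5 index, with median cells at 64.9% and 37.7% and SDs over cells of 25.7 and 17.8 percentage points. Single cells ran from 20.4 to 99.4% and from 8.02 to 55.4%, so the groups overlapped.

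The share of Il13 was lower at later times of the IL-13 index, at 32.3% at 60 min and 26.3% at 90 min, where it led Il5 in 4 of 11 and 1 of 9 cells, and was 58.7% in activated cells, where it led in 6 of 11. Median cells were at 34.1, 30.4 and 48.7%, with SDs over cells of 26.0, 17.6 and 25.0 percentage points. In the activated cells, replicate 6 held 30.6% of the Il13 reads, and the median cell was below the summed share. With the IL-5 index it was 27.3% at 60 min, 28.0% at 90 min and 24.2% in activated cells. Silent cells showed the reverse order of the indexes, with 1.78% Il13 in the 6 countable cells of the IL-13 index and 51.8% in the 9 of the IL-5 index, where Il13 led in 6. Il4 made up 1.03 to 9.39% of these reads in the secreting groups. In 2 stimulated cells, both silent, Il4 was at least 50%.

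**Figure D5:**
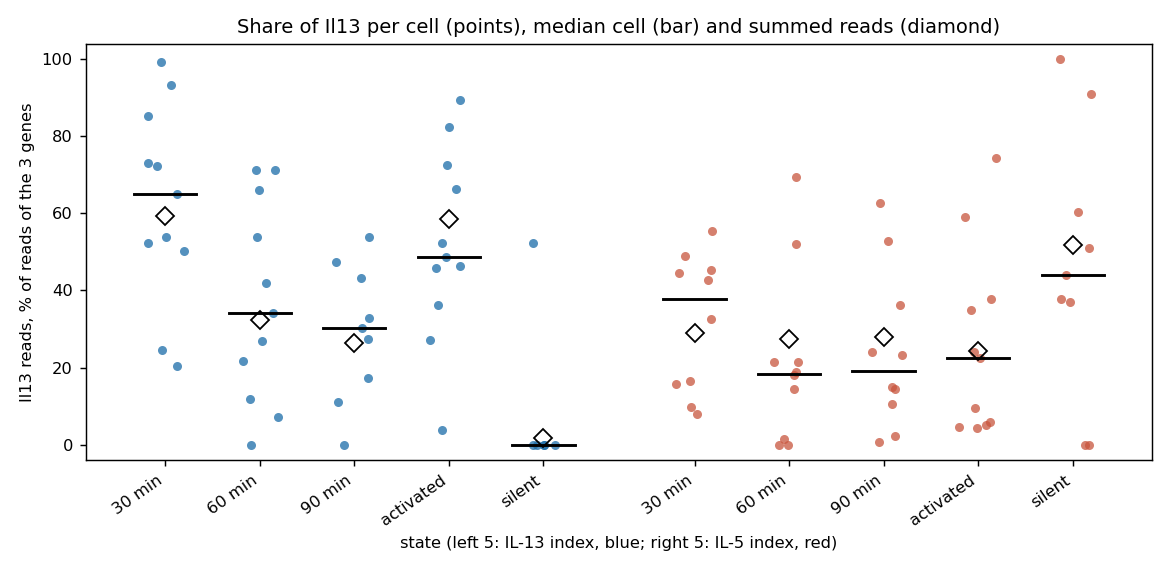
Share of Il13 in the summed reads of the 3 genes (vertical axis, percent) in each cell with at least 20 such reads (points), by state and index (horizontal axis), with the median cell as a bar and the share in the summed reads of the group as a diamond. In the IL-13 index the diamonds stand at 59.2% at 30 min and 26.3% at 90 min, and in the IL-5 index between 24.2 and 28.9% in the secreting groups.

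The dates in the titles split each stimulated group into 5 and 6 cells, and pre-stimulation cells carry the earlier date of their index only. Both dates of every stimulated secreting group held cells with all 3 genes. Median Il13 at 30 min was 2715 and 1331 CPM on the earlier and later date with the IL-13 index and 2250 and 1267 CPM with the IL-5 index. Median Il5 at 30 min was 4597 and 1687 CPM on these dates with the IL-5 index. Median Il4 at 90 min was 331.2 and 8.81 CPM with the IL-13 index and 301.2 and 0 CPM with the IL-5 index, in 3 to 6 cells each. What the dates stand for is not given, and a date cannot be told apart from its library pools.

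The genes most like each member over the 12 groups (r of log2(CPM + 1) of summed counts, n = 12) were Sqle, Fam207a, Stat5a, Mir155hg and Lta for Il13, with r from 0.93 to 0.97. For Il5 they were Cyp51, Elp5, Exosc1, Esf1 and Cd44 (0.96 to 0.97), and for Il4 Fndc3a, Eif1a, Samm50, Cct5 and Yif1a (0.95 to 0.98). Il13 and Il5 had an r of 0.91 with each other, and Il4 had 0.61 with Il13 and 0.43 with Il5. The pre-stimulation groups near 0 set much of the range of Il13 and Il5. Over the 104 stimulated cells within groups and dates, the genes most like Il13 were Pim2, Pim1, Ppm1g, Mir155hg and Ifrd1 (0.35 to 0.39). For Il5 they were Arpc1b, Gm49339, Cd53, Psmb5 and Furin (0.33 to 0.38), and for Il4 Myc, Rpl41, Mia2, Tnfrsf25 and Pla2g16 (0.32 to 0.35). The 95th percentile of r over 2557 genes was 0.19 for Il13, 0.20 for Il5 and 0.21 for Il4. These genes are the largest of that many values in the same data, so their r alone does not single them out. Within the IL-5 index alone, Csf2, which encodes GM-CSF and lies in the same cytokine cluster, was the 4th gene for Il13 (0.47, n = 51), and Xbp1, a factor of the secretory pathway, led for Il5 (0.57). Within the IL-13 index, Cish, a STAT5 target that restrains cytokine signals, led for Il13 (0.53) and Il6 was among the first 5 (0.44, n = 53). For each member, the first 5 genes of the IL-13 index and of the IL-5 index shared no gene.

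Genes around the 3 members and in their pathway were read as group sums over all cells, shallow ones included, counting those past 2-fold among genes with a mean of at least 50 CPM. At 30 min against pre-stimulation, all 3 members were past 2-fold higher in the IL-13 index, where 25.7% of 2654 genes were higher and 30.7% lower. Il13 stood at 2144 against 1.04 CPM, Il5 at 1310 against 23.8 CPM and Il4 at 166.6 against 0 CPM, or at least 53.6-fold higher by a floor of 3 reads over the group. Without replicate 9 that Il4 level was 109.7 CPM, which lowers the bound. For the IL-5 index, where 26.3% of 2837 genes were higher and 30.2% lower, Il13 was at least 767-fold and Il5 at least 1859-fold higher against 0 reads. Il4 was lower there but not past 2-fold, at 67.9 against 132.8 CPM, with a counting interval of the log2 ratio from -1.26 to -0.67. This direction rests on 1 pre-stimulation cell, as the pre-stimulation level was 40.1 CPM without replicate 5.

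For activated against silent cells, 17.5% of 2796 genes were higher and 27.4% lower in the IL-13 index, where again all 3 members were past 2-fold higher (1231 against 4.16 CPM for Il13, 771.6 against 204.0 for Il5 and 96.1 against 35.9 for Il4). For the IL-5 index, with 13.0% of 2563 genes higher and 17.5% lower, this held for Il5 alone, at 2929 against 483.8 CPM. Il13 was at 991.1 against 626.6 CPM and Il4 at 168.5 against 100.1 CPM. Single cells move these values. Without replicate 7, Il4 in IL-13-indexed activated cells was 62.5 CPM, which is under 2-fold of 35.9 CPM, so this call rests on that cell. Without replicate 7 of the IL-5-indexed activated cells, Il5 was 1873 CPM and still past 2-fold. Among silent cells, in the IL-13 index Il4 was 8.60 CPM without replicate 10 and Il5 was 121.6 CPM without replicate 7. For IL-5-indexed silent cells Il5 was 114.2 CPM and Il13 351.5 CPM without replicate 6, and Il4 was 56.5 CPM without replicate 5, which would put Il13 and Il4 past 2-fold.

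Of the 11 neighbours of the locus, few reached 50 CPM. At 30 min against pre-stimulation 1 of 2 was past 2-fold higher in the IL-13 index and 1 of 3 in the IL-5 index, beside 25.7 and 26.3% of all genes, and 0 were lower, beside 30.7 and 30.2%. For activated against silent cells 2 of 3 were higher in the IL-13 index (beside 17.5%) and 0 of 4 in the IL-5 index (beside 13.0%), where 1 was lower (beside 17.5%). So few genes say nothing of the neighbours as a group. Csf2 was at 2051 against 1.04 CPM and at 7081 against 28.0 CPM at 30 min, and at 13159 against 872.7 CPM in activated against silent cells of the IL-13 index. IL-5-indexed cells had 12102 against 7826 CPM. P4ha2, a subunit of the enzyme that hydroxylates collagen prolines, was at 88.0 against 13.2 CPM in activated against silent cells of the IL-13 index, with reads in 5 and 2 of 11 cells. Irf1, an interferon-regulatory factor, was at 23.8 against 89.4 CPM in those of the IL-5 index, with reads in 2 and 5 of 11 cells. Uqcrq, a respiratory chain gene at the edge of the locus, was not past 2-fold in any. Rad50 itself was read in 39 of 104 stimulated and 4 of 10 pre-stimulation cells. Over stimulated cells within groups, Csf2 had an r of 0.31 with Il13, 0.14 with Il5 and -0.05 with Il4, and Rad50 of -0.17, 0.01 and 0.02 (n = 104).

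Among 36 listed regulators of type 2 cytokine transcription, 19 reached 50 CPM at 30 min against pre-stimulation in the IL-13 index, of which 11 (57.9%, beside 25.7% of all genes) were past 2-fold higher and 2 (10.5%, beside 30.7%) lower. For the IL-5 index 21 did, of which 9 (42.9%, beside 26.3%) were higher and 6 (28.6%, beside 30.2%) lower. Of the AP-1 family, Batf stood at 3203 against 122.4 CPM with the IL-13 index and at 2277 against 0 CPM with the IL-5 index, and Junb at 655.2 against 25.9 CPM and 315.1 against 42.1 CPM. Jund was higher with the IL-13 index (154.7 against 32.1 CPM) and Jun with the IL-5 index (129.0 against 0 CPM). Of the NF-kB family, which carries the IL-33 signal, Rel stood at 1024 against 1.04 CPM and 638.6 against 0 CPM, Nfkb1 at 881.2 against 109.9 CPM and 1204 against 160.9 CPM, and Nfkb2 at 404.2 against 0 CPM and 462.3 against 85.8 CPM. Rela (114.7 against 0 CPM) and Relb (338.8 against 0 CPM) were past 2-fold with the IL-13 index. Rora, a factor of ILC2 identity, stood at 1197 against 91.3 CPM and 1433 against 189.7 CPM, and Stat6, the transducer of IL-4 and IL-13 signals, at 170.7 against 42.5 CPM and 179.4 against 21.4 CPM. Stat5a, a transducer of IL-2 signals, was higher with the IL-5 index (129.2 against 0 CPM). Naming Relb, Jun and Stat5a for 1 index follows the filter. With the other index, Relb (91.8 against 0 CPM), Jun (28.4 against 0 CPM) and Stat5a (71.0 against 0 CPM) had a mean under 50 CPM.

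Lower at 30 min in both indexes were Bcl11b, at 8.22 against 123.4 CPM and 5.91 against 107.2 CPM, which rests on 1 pre-stimulation cell in each, and Ets1, at 15.3 against 186.6 CPM and 18.0 against 132.0 CPM. With the IL-5 index the chromatin remodeller Chd4 (114.3 against 239.2 CPM), Ikzf1 (84.5 against 170.8 CPM) and Nfatc1 (23.4 against 85.8 CPM) were lower too. Maf, an activator of Il4 in T helper 2 cells, went opposite ways. It was at 170.0 against 13.5 CPM with the IL-13 index, with reads in 3 of 11 and 1 of 5 cells, and at 1.41 against 147.7 CPM with the IL-5 index, with reads in 1 of 11 and 3 of 5 cells.

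For activated against silent cells 6 of 19 regulators (31.6%, beside 17.5%) were higher and 5 (26.3%, beside 27.4%) lower in the IL-13 index, and 2 of 17 (11.8%, beside 13.0%) higher and 2 (11.8%, beside 17.5%) lower in the IL-5 index, so 3 of these 4 shares were near or below those of all genes. Irf4, a partner of Batf, was higher in both, at 113.7 against 0 CPM and 314.8 against 67.8 CPM. Higher with the IL-13 index were also Batf (983.3 against 230.5 CPM), Bhlhe40 (130.3 against 36.3 CPM), Rel (190.1 against 83.9 CPM), Relb (94.9 against 17.0 CPM) and Stat5a (334.8 against 0.38 CPM). Lower there were Id2 (269.9 against 1306 CPM) and Gata3 (333.2 against 689.9 CPM), which direct ILC2 development, with Ets1 (92.4 against 231.6 CPM), Nfatc1 (12.2 against 112.2 CPM) and Stat6 (68.0 against 139.0 CPM). With the IL-5 index Nfil3 was higher (85.5 against 25.1 CPM), and Chd4 (73.4 against 247.3 CPM) and Junb (142.8 against 311.8 CPM) were lower. The median log2 ratio of the listed regulators was 2.27 and 0.40 at 30 min, against -0.23 and -0.19 over all genes, and -0.38 and -0.39 for activated against silent cells, against -0.12 and -0.07.

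Of 10 receptors, 4 and 5 reached 50 CPM at 30 min and 4 and 4 in activated against silent cells, in the order of IL-13 and IL-5 index, and 1 was past 2-fold higher in each comparison, or 25% in 3 of them and 20% at 30 min of the IL-5 index, beside 25.7, 26.3, 17.5 and 13.0% of all genes. These shares of 4 or 5 genes say nothing of the list. The gene was Il2ra, the high-affinity chain of the IL-2 receptor, at 1010.1 against 406.5 CPM and 2044 against 212.8 CPM at 30 min, and 1226 against 338.5 CPM and 2566 against 801.1 CPM in activated against silent cells. The median log2 ratio of the receptors lay between 0.06 and 0.38. Il4ra was lower at 30 min in the IL-5 index, at 15.5 against 138.6 CPM, with reads in 1 of 11 and 3 of 5 cells. Of 11 other cytokines, 3 of 4 were past 2-fold higher and 1 lower at 30 min in the IL-13 index (beside 25.7 and 30.7% of all genes) and 5 of 6 higher and 0 lower in the IL-5 index (beside 26.3 and 30.2%). In activated cells 3 of 5 were higher and 0 lower with the IL-13 index (beside 17.5 and 27.4%), and 4 of 6 higher and 1 lower with the IL-5 index (beside 13.0 and 17.5%). Csf2 is on both this list and that of the neighbours. Il6 was higher in all 4 comparisons, at 1396 and 321.5 CPM against 0 at 30 min and at 2527 against 15.5 CPM and 3080.4 against 36.5 CPM in activated against silent cells. Calca, which encodes the neuropeptide CGRP, was higher at 30 min, at 1251 against 129.6 CPM and 3356 against 78.4 CPM, and in activated cells of the IL-5 index, at 7048 against 2746 CPM. Il9 (5412 against 0 CPM) and Tnf (123.9 against 0 CPM) were higher at 30 min with the IL-5 index, and Penk, which encodes the enkephalin precursor, in its activated cells (348.3 against 0 CPM, with reads in 5 of 11 cells). Il9 was at 44252 against 0.38 CPM and 60451 against 3.59 CPM in activated against silent cells, with a read in 4 of 11 silent cells of the IL-5 index. Lower were Il2 at 30 min in the IL-13 index, at 0 against 188.7 CPM, and Tnf in activated cells of the IL-5 index, at 13.1 against 91.0 CPM.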

How the data were processed

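Single ILC2 were sequenced from their 3' ends, 1 library per cell. The deposited values are raw gene counts. According to the study's methods, the authors mapped read 1 to GRCm38 using TopHat and assigned reads to genes using HTSeq. Whether strand was used, and which annotation release, is not given in the sources used here. Of the tallied alignments 62.0% lay in genes, 7.42% in no feature, 1.86% were ambiguous and 28.7% were not unique, and the 5 summary entries were left out of all totals. Genes without a name in the annotation held 0.0886% of gene reads. Values were scaled to CPM by each cell's gene reads and, for levels and correlations, taken as log2(CPM + 1). Cells under 84667 gene reads were left out except where group sums are given.

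Groups and title dates come from the labels. The cells of a group are not known to come from separate cultures or animals, so no test was made. Clopper-Pearson intervals for shares and Poisson intervals for counts are at the 95% level and cover counting error only, as reads carry no molecular identifier. A count of 0 was given a floor of 3 reads in folds, and the share of cells that 0 of n allows is 3 of n, with the exact bound beside it. Correlations are Pearson's r and Spearman's rho over cells, with n and no p.

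The members, the gene lists and the comparisons were chosen with earlier results of these data known. Genes are named if they are members, if they are among the 5 most like a member, or if they are on a list and past 2-fold, with locus neighbours and markers given by their detection. The comparison of library pools was chosen after the data were seen. Alternatives were other scalings (TMM of edgeR 4.0.16, size factors of DESeq2 1.42.0, in R 4.3.3), detection limits, pseudocounts, filters, thinning to 100000 reads, all cells, the first title date alone and each cell left out. Python 3.11.15, numpy 2.4.6, scipy 1.17.1 and pandas 2.3.3 were used, and scripts were tested on simulated data.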

Additional observations from a re-analysis of the deposited data

Results flagged for a closer look

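In 18 sets of 4 to 10 cells, one for each gene and group of that size where the cells were not all at 0, the cell at either end was compared with its nearest neighbour, and for evenly measured values a gap this wide arises by chance in about 1 in 20 sets. That rate does not hold where 4 of 5 cells are at 0, since any read in the other cell then gives the widest gap there can be. Il13 at 5.93 CPM in replicate 4 of the pre-stimulation cells of the IL-13 index stood apart from 4 cells at 0, and is 1 read. Il5 at 93.4 CPM in replicate 1 of the same group also stood apart from 4 cells at 0, and is 23 reads. In the 90 min cells of the IL-13 index, replicate 7 was at 0 CPM of Il13, a gap of 0.738 of the range of the 9 cells on the log2(CPM + 1) scale, with Il5 at 161.1 CPM and Il4 at 0.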

How the results depend on the processing

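With a pseudocount of 10 CPM the log2 differences of medians at 30 min from pre-stimulation were 7.10 for Il13 and 6.58 for Il5 in the IL-13 index and 7.30 and 8.47 in the IL-5 index, and that of Il13 between activated and silent cells of the IL-13 index was 6.58; with summed counts Il5 at 30 min in the IL-13 index was 5.72. The other 66 of 72 alternative values moved by less than the spread of cells, as did all 222 that left out 1 cell. That spread is a wide yardstick, which leaving out 1 cell can hardly exceed. Without replicate 5 of the silent cells of the IL-5 index, the median of Il4 against that at 30 min went from -1.32 to -4.45, a move still under the SD of 3.88.

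At 100 CPM the share of cells with all 3 genes was 36.4% at 30 min, 45.5% at 60 min and 27.3% in IL-13-indexed activated cells, and 20% at 60 min and 54.5% in activated cells of the IL-5 index. Il13 and Il5 were then together in 0% of silent cells of the IL-13 and 30% of the IL-5 index. On the first title date alone they were together in 100% of cells at 60 and at 90 min of the IL-13 index. Leaving out 1 cell, this share ran from 90 to 100% at 60 min (100% without replicate 11), from 87.5 to 100% at 90 min (100% without replicate 7) and from 0 to 10% in silent cells (0% without replicate 1), and all 3 genes ran from 90 to 100% in activated cells of the IL-5 index (100% without replicate 4).

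In the IL-5 index r of Il13 and Il5 was 0.53 with a pseudocount of 10 CPM and 0.58 over all cells. The r of Il13 and Il4 was -0.16 after thinning, 0.067 over all cells and -0.17 without title dates. The r of Il5 and Il4 was -0.092 after thinning and 0.16 over all cells. The cells added in the values over all cells include libraries of 73 and 65 gene reads with none of the 3 genes, which raise r by construction, so those values say nothing of its sign. At 90 min of the IL-5 index, where the added cell had 66588 reads, r of Il13 and Il5 was 0.30. Of 186 values of r, 163 moved by less than the range on leaving out 1 cell. The share of Il13 reads moved beyond the spread of cells, again a wide yardstick, in none of 20 alternatives.

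Counts of listed genes followed the filter. At 50 CPM, 15 of 28 were higher and 3 lower at 30 min in the IL-13 index (beside 25.7 and 30.7% of all genes). Its activated cells had 11 of 30 higher and 5 lower (beside 17.5 and 27.4%). In the IL-5 index these were 15 of 34 and 7 (beside 26.3 and 30.2%), and 7 of 30 and 4 (beside 13.0 and 17.5%). Shares of all genes at the other settings are not given, so those counts cannot be set against a background. At a mean of 10 CPM, 28 were higher and 5 lower at 30 min in the IL-13 index, 16 lower in its activated cells, 24 higher at 30 min in the IL-5 index, and 16 higher and 10 lower in its activated cells. At 200 CPM these were 0 lower, then 5 higher and 2 lower, then 9 higher and 0 lower, then 4 higher and 1 lower. On the first title date 5 were lower at 30 min in the IL-13 index. TMM and DESeq2 factors each left 3 lower for IL-13-indexed activated against silent cells and 3 lower at 30 min in the IL-5 index, and the mean of the cells' own CPM left 3 lower in the former. The cause was not tested. No test and no paired analysis was made. The cell numbers follow title date and library primer and are not known to link a cell to a cell of another state. With 9 to 11 cells in most groups, shares have wide intervals.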
